A study of Mus musculus with 6 samples.

Results

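The genes described here encode short-range and secreted guidance cues for axons and their receptors, in RNA labelled as sciatic nerve of mice at postnatal day 3. The members are defined by gene symbol: the EphA and EphB receptors, the ephrin-A and ephrin-B ligands, Slit1 to Slit3, Robo1 to Robo4, the netrins, Unc5a to Unc5d and Dcc. The rule found 37 genes among the 54532 of the count table, 23 receptors and 14 ligands. Of these, 36 had enough reads to be tested among the 17099 genes that were, and the remaining one, Ntn5, is given by its counts. The sequencing compared 3 control mice, which carry wild-type Dok6 and are called littermates in the study, with 3 Dok6 mutant mice, labelled Dok6 KO, one library per mouse. The mutant line was made by crossing floxed Dok6 mice on a C57BL/6 background with EIIA-cre mice, in which Cre acts in the early embryo. The deletion, which takes out exon 3, is therefore present in every tissue and not in neurons or Schwann cells alone. Dok6 encodes an adaptor protein that binds activated receptor tyrosine kinases. The sequencing was done to look for pathways downstream of Dok6.

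Eph receptors are receptor tyrosine kinases that are activated by ephrins on a neighbouring cell. Ephrin-A proteins are held to the membrane by a lipid anchor and ephrin-B proteins span it, so that signals can pass into both of the touching cells. Slit proteins are secreted and repel growing axons through Robo receptors, whereas netrins attract axons through Dcc and repel them through Unc5 receptors. In the spinal cord, these systems steer axons toward and across the midline. In peripheral nerve, ephrin-B and EphB2 act between fibroblasts and Schwann cells during nerve repair, and outside the nervous system Efnb2, Ephb4, Robo4 and Unc5b act in blood vessels.

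The libraries held between 17699904 and 18678170 counts, and levels are given as counts per 1000000 counts of the library (CPM) after scaling. Dok6 was at 17.8, 11.9 and 17.5 CPM in controls 1, 2 and 3 and at 7.26, 5.78 and 7.15 CPM in mutants 1, 2 and 3, with a log2 fold change of -1.23 ± 0.20 (SE, adjusted p = 0.0118) by edgeR's quasi-likelihood method. Counts per gene do not show whether the reads left in the mutant mice came from exons outside the deletion. Every pair of libraries differed by more than the sampling noise of counts. Marker lists for the cell types of a nerve and of the tissues around it were not those of a peripheral nerve alone. All 13 markers of central neurons and all 12 markers of central glia reached 1 CPM in each library, among them Slc6a5, the glycine transporter of inhibitory neurons, at 224, 264 and 240.3 CPM in the control mice. So did 12 of 15 markers of Schwann cells, 15 of 20 of sensory neurons of the dorsal root ganglion (DRG) and 8 of 11 of nerve fibroblasts. Prx, which encodes periaxin of myelinating Schwann cells, stood at 10.3, 5.45 and 3.83 CPM in controls and 28.2, 330.3 and 18.7 CPM in mutants. Levels differed within the Schwann cell list, with Sox10 at 63.4, 42.2 and 107.7 CPM and Egr2 at 1.2, 0.975 and 0.4 CPM in controls. In a bulk sample, fewer cells of a type and less RNA per cell cannot be told apart.

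Per length of the gene, ephrin-B3 was the most abundant guidance transcript of these libraries. Levels of different genes are compared here only as CPM per kb of the gene length given by the authors. Efnb3 stood at 94.2 ± 12.3 CPM per kb (SD, n = 3 mice) in the control mice and at 78.1 ± 5.17 CPM per kb in the mutant mice. Ntn1, the founding secreted netrin, followed at 41.1 ± 12.8 CPM per kb in the control mice. Slit1 at 31.9 ± 8.29 and Efna3 at 25.4 ± 2.08 CPM per kb in the control mice came next, and the ranges of Ntn1 and Slit1 overlapped, as did those of Slit1 and Efna3. In the control mice the first 4 places were thus held by ligands, ahead of Robo2, the first receptor, at 17.5 ± 0.646 CPM per kb and Ephb6 at 15.9 ± 0.605 CPM per kb. The same 4 ligands led in the mutant mice, with Slit1 before Ntn1. There Ephb6, at 22.1 ± 1.43 CPM per kb, was the first receptor, and Robo2 followed at 14.6 ± 1.61. The lowest levels in the control mice were those of Ntn5, Epha1 and Robo3, at 0.0259, 0.199 and 0.449 CPM per kb. Summed over the members, ligands stood at 235 ± 33.1 CPM per kb in the control mice and at 216 ± 20.6 in the mutant mice. Receptors stood at 140.2 ± 6.84 and 146 ± 10.1 CPM per kb. The genotypes overlapped in both sums.

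**Figure D1:**
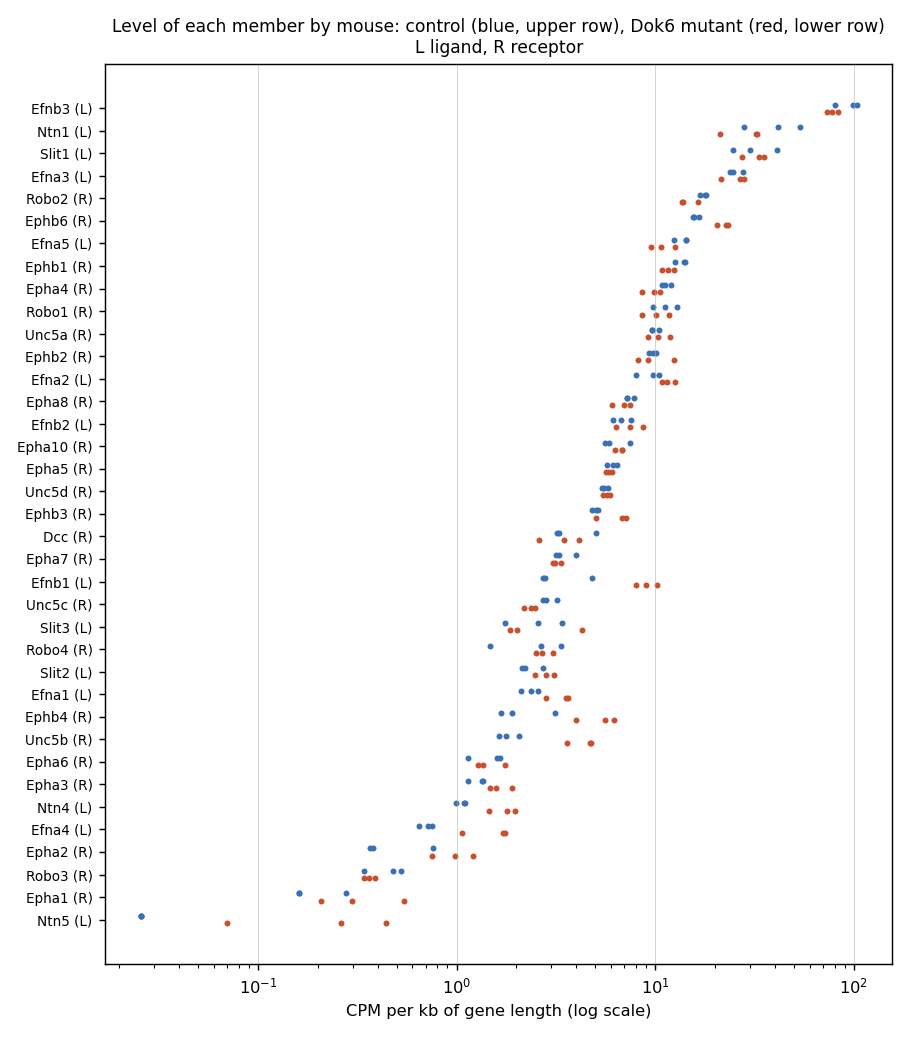
Level of all 37 members in each mouse, in CPM per kb of gene length on a log scale, ordered by the control mean, with control mice in blue (upper row of each gene) and Dok6 mutant mice in red (lower row). Efnb3, Ntn1, Slit1 and Efna3 lead the order in the control mice, and the blue and red points are apart for Efnb1, Unc5b and Ephb4.

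At an adjusted p below 0.05 (edgeR's quasi-likelihood method with Benjamini-Hochberg adjustment over every gene tested), 6 of the 36 members tested were higher in Dok6 mutant mice and 0 were lower. They were the ligands Efnb1, Efna4 and Ntn4 and the receptors Unc5b, Ephb4 and Ephb6. Of all 17099 genes tested, 8.62% were called higher and 6.01% lower. Before adjustment, 11 members were higher and 6 lower at p under 0.05, as were 18% and 15.5% of all genes tested. For lower members DESeq2 called 1, Unc5c, and limma voom called 0. In 9 members every mutant mouse was above every control mouse and in 4 every mutant mouse was below, where 19.6% and 18.7% of all genes tested separated in these directions. At an absolute log2 fold change above 1, the members called were Efnb1, Unc5b, Ephb4 and Efna4, or 4 of 36, against 3.58% of all genes called higher at that size. None of the 36 reached a log2 fold change of 2, the size used in the study's methods, which 1.08% of all genes exceeded as called increases. Each of the 6 calls needed control mouse 2. Without this mouse 0 members were called by edgeR's test, with 8 higher and 2 lower at an unadjusted p under 0.05, and over all genes the calls went from 2502 to 68. The log2 fold changes of Efnb1, Unc5b and Ephb4 were then 1.27, 1.17 and 1.05, with adjusted p-values of 0.0681, 0.0519 and 0.096. Without control mouse 3, Efnb1, Ephb6 and Unc5b, or 3 members, were called higher.

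**Figure D2:**
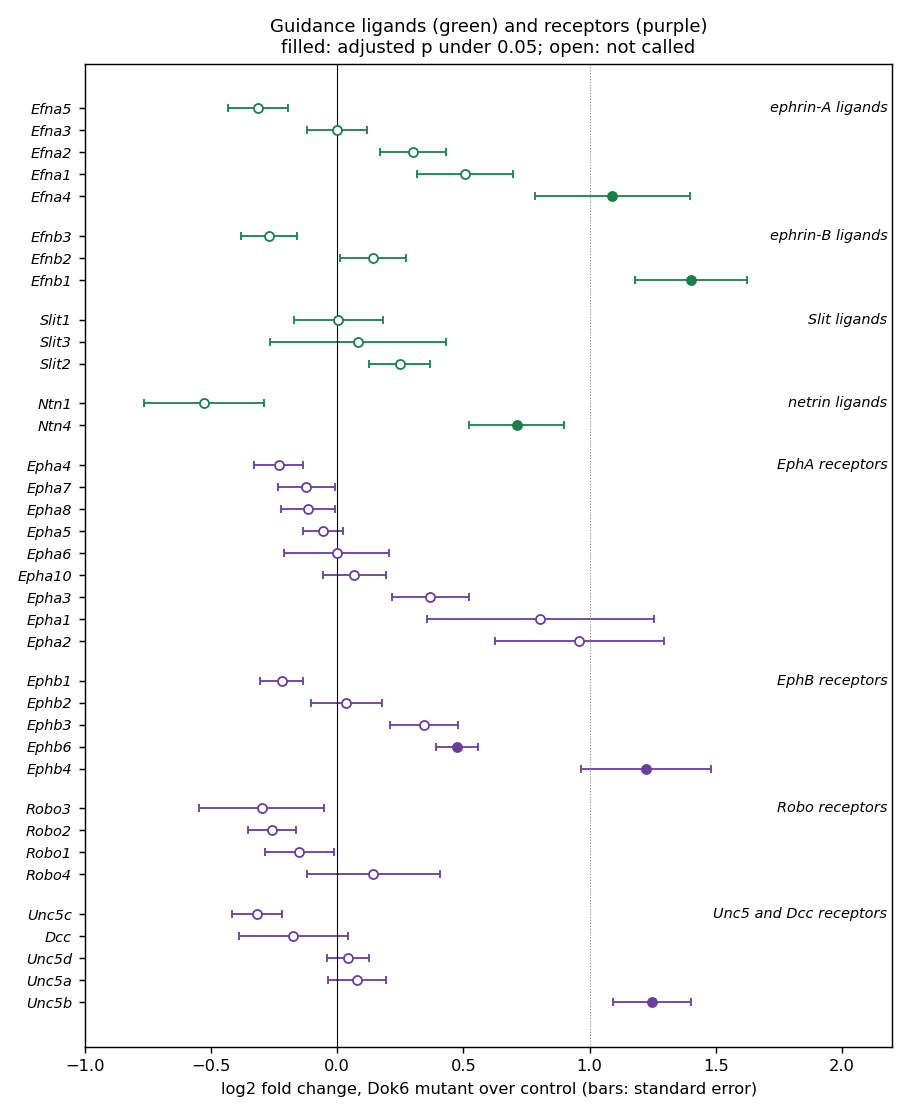
Log2 fold change of Dok6 mutant over control mice for the 36 members tested, with bars for the standard error, ligands in green and receptors in purple, and filled points for an adjusted p under 0.05. The 6 filled points all lie to the right of 0, from 0.47 for Ephb6 to 1.40 for Efnb1, and the dotted line marks a log2 fold change of 1.

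Of 13 ligands tested, 9 had a positive and 4 a negative log2 fold change, with a median of 0.14. Of 23 receptors, 12 had a positive and 11 a negative one, with a median of 0.036, and the median of all genes tested was 0.013. Leaving out single mice moved the ligand median between 0.13 and 0.33 and the receptor median between -0.082 and 0.086. The ligand median was highest without control mouse 1, followed by the fit without mutant mouse 2, and the receptor median was negative without control mouse 2 and without mutant mouse 3. Called higher were 3 of the 13 ligands and 3 of the 23 receptors, where DESeq2 and limma voom each gave 2 ligands and 3 receptors and leaving out single mice gave 0 to 3 ligands and 0 to 4 receptors. Among the ligands 5 separated upward and 0 downward, and among the receptors 4 of 23 separated in each direction. Over all genes tested, 8.62% were called higher, 19.6% separated upward and 18.7% downward, and the receptors separated at close to these shares. These counts and medians describe the members and were not tested against one another. Within each genotype the members did not vary evenly over the mice: control mouse 1 was the highest control in 23 of the 37 members, and mutant mouse 2 was the lowest mutant in 23.

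Among the ephrin-B ligands, which span the membrane, Efnb1 rose while the abundant Efnb3 did not pass the test. Efnb1 was at 16.5, 9.63 and 9.44 CPM in controls 1, 2 and 3 and at 27.8, 31.1 and 35.3 CPM in mutants 1, 2 and 3. All mutant mice were above all control mice, and control mouse 1 was the highest control. This corresponded to a log2 fold change of 1.40 ± 0.22 (SE, adjusted p = 0.0114), or 2.64-fold, the largest among the 36 members. Efnb3 was at 329, 316 and 255 CPM in controls 1, 2 and 3 and at 266, 233 and 248 CPM in mutants 1, 2 and 3, and control mouse 3 lay within the mutant range. Its log2 fold change was -0.27 ± 0.11 (SE, adjusted p = 0.124). Efnb2, a ligand of arterial endothelium and of neurons, was at 51.6, 42.1 and 45.9 CPM in controls and 59.5, 43.7 and 50.9 CPM in mutants, with overlapping genotypes and a log2 fold change of 0.14 ± 0.13 (SE, adjusted p = 0.477). The make-up of the family differed between the genotypes accordingly. Efnb1 made up 3.26% ± 0.800 of the summed ephrin-B level per kb in the control mice and 9.63% ± 1.42 in the mutant mice (SD, n = 3 mice), and Efnb3 made up 90.2% ± 1.34 and 82.5% ± 0.894. For neither gene did these shares overlap between the genotypes. The share of Efnb3 also falls when Efnb1 rises, and the level of Efnb3 itself overlapped between the genotypes.

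The EphB receptors, to which ephrin-B proteins bind, held 2 of the 6 calls. Ephb4 was at 14.6, 7.8 and 8.86 CPM in controls 1, 2 and 3 and at 28.7, 18.4 and 25.8 CPM in mutants 1, 2 and 3. Ephb4, the receptor through which veins respond to arterial Efnb2, was thus higher in every mutant mouse, with a log2 fold change of 1.22 ± 0.26 (SE, adjusted p = 0.0216). Without control mouse 3 and without mutant mouse 1, its adjusted p-values were 0.056 and 0.0619. Endothelial markers also ran higher, summing to 204 to 327 CPM in controls and 348 to 474 CPM in mutants, and their part in the Ephb4 and Unc5b differences was not tested. Ephb6 was at 62.6, 58.4 and 59 CPM in controls 1, 2 and 3 and at 77.3, 87.6 and 85.2 CPM in mutants 1, 2 and 3. Ephb6, whose kinase domain is inactive, showed the smallest of the 6 called differences at 1.39-fold, with small spread among the mice and a log2 fold change of 0.47 ± 0.084 (SE, adjusted p = 0.0145). Its adjusted p was 0.0579 with the replicate block and 0.0841 without control mouse 2. Ephb3 had a log2 fold change of 0.34 ± 0.13 (SE, adjusted p = 0.113), and mutant mouse 3 lay within the control range. Ephb1 was lower in every mutant mouse, at 98.6, 88.1 and 97.4 CPM in controls and 81.3, 75.5 and 87.1 CPM in mutants, but its log2 fold change of -0.22 ± 0.087 (SE, adjusted p = 0.114) did not pass the test. Ephb2 overlapped between the genotypes, at 127, 117 and 124 CPM in controls and 116, 104 and 157 CPM in mutants, with a log2 fold change of 0.036 ± 0.14 (SE, adjusted p = 0.885). Per kb, Ephb4 made up 4.79% ± 1.4 of the EphB family in the control mice and 9.47% ± 1.96 in the mutant mice, while Ephb1 made up 29.2% ± 0.776 and 21% ± 0.666. Such a share also falls when other members rise, and the level of Ephb1 itself was 13.5 ± 0.823 and 11.6 ± 0.826 CPM per kb.

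Of the lipid-anchored ephrin-A ligands, only Efna4 was called, at a low level. Efna4 was at 1.2, 1.03 and 1.14 CPM in controls 1, 2 and 3 and at 2.8, 2.73 and 1.7 CPM in mutants 1, 2 and 3. Its counts ran from 18 to 54 per library, and the 3 mutant mice were above the controls, with a log2 fold change of 1.09 ± 0.31 (SE, adjusted p = 0.0465). DESeq2 and limma voom gave adjusted p-values of 0.0522 and 0.0633, and edgeR's values without each mouse in turn other than mutant 3 ran from 0.089 to 0.157. Efna1 and Efna2 also separated upward, with log2 fold changes of 0.51 ± 0.19 (SE, adjusted p = 0.105) and 0.30 ± 0.13 (SE, adjusted p = 0.146). Efna3, the most abundant ephrin-A, was at 58.1, 59.8 and 67.6 CPM in controls and 64.7, 52.3 and 68.3 CPM in mutants, with overlapping genotypes and a log2 fold change of -0.0020 ± 0.12 (SE, adjusted p = 0.992). Efna5, a repellent of growing axons in many brain maps, had a log2 fold change of -0.31 ± 0.12 (SE, adjusted p = 0.108), with mutant mouse 3 inside the control range.

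None of the 9 EphA receptors was called by edgeR, DESeq2 or limma voom, and in edgeR's test 3 had an unadjusted p under 0.05, 2 of them higher and 1 lower, beside 18% and 15.5% of all genes tested. Epha4, the most abundant of them per kb and a receptor for both ephrin classes, was at 90, 86.8 and 97.1 CPM in controls and 79.4, 69 and 84.9 CPM in mutants. It was lower in every mutant mouse, with a log2 fold change of -0.23 ± 0.10 (SE, adjusted p = 0.133). Epha2, an EphA receptor of epithelia and vessels, had the largest difference of the family, 0.96 ± 0.34 (SE, adjusted p = 0.0858), with 3.56, 1.78 and 1.72 CPM in controls and 4.56, 5.67 and 3.5 CPM in mutants. Control mouse 1 exceeded mutant mouse 3 by a narrow margin. Without control mouse 1, Epha2 was called higher. Epha3 separated upward with a log2 fold change of 0.37 ± 0.15 (SE, adjusted p = 0.13). Epha1 had a log2 fold change of 0.81 ± 0.45 (SE, adjusted p = 0.244) on 11 to 41 counts per library. Epha5, Epha6, Epha7, Epha8 and Epha10 overlapped between the genotypes, and their log2 fold changes ran from -0.12 for Epha7 and Epha8 to 0.068 for Epha10.

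No Slit ligand or Robo receptor was called by edgeR, DESeq2 or limma voom, and among the 7 genes edgeR gave an unadjusted p under 0.05 for Robo2. Slit1, the Slit of neurons and the most abundant member of these families per kb, was at 243, 178 and 146 CPM in controls and 197, 162 and 209.9 CPM in mutants. The genotypes overlapped, with a log2 fold change of 0.0044 ± 0.18 (SE, adjusted p = 0.989). Slit2 and Slit3 had log2 fold changes of 0.25 ± 0.12 (SE, adjusted p = 0.19) and 0.083 ± 0.35 (SE, adjusted p = 0.891), and both overlapped. Robo2 was at 302, 305 and 285 CPM in controls 1, 2 and 3 and at 235, 230.4 and 279.9 CPM in mutants 1, 2 and 3. All mutant mice were below all control mice for this Slit receptor of neurons, and its log2 fold change was -0.26 ± 0.10 (SE, adjusted p = 0.0969). Robo1 overlapped, at -0.15 ± 0.14 (SE, adjusted p = 0.47), as did Robo3, the divergent Robo of commissural axons, at -0.30 ± 0.25 (SE, adjusted p = 0.43) on 41 to 63 counts per library. Robo4, which is largely restricted to endothelium, was at 17.8, 14 and 7.83 CPM in controls and 14.2, 13.3 and 16.3 CPM in mutants, with overlapping genotypes and a log2 fold change of 0.14 ± 0.26 (SE, adjusted p = 0.737).

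Among netrins and their receptors, Ntn4 and Unc5b rose, and the attractant pair Ntn1 and Dcc did not pass the test. Ntn1 was at 337, 261 and 176 CPM in controls 1, 2 and 3 and at 201, 132 and 205 CPM in mutants 1, 2 and 3. The control mice spread widely, and mutant mice 1 and 3 fell inside their range, with a log2 fold change of -0.53 ± 0.24 (SE, adjusted p = 0.159). Ntn4, a netrin of basement membranes that binds laminin, was at 4.07, 3.73 and 4.12 CPM in controls and 7.37, 6.71 and 5.46 CPM in mutants, and every mutant mouse was higher, at a log2 fold change of 0.71 ± 0.19 (SE, adjusted p = 0.0398). This call was lost under 7 of 12 alternatives: the adjusted p of Ntn4 was 0.051 without the filter on low counts and 0.100 with the replicate block, and edgeR's values without each mouse in turn other than mutant 3 ran from 0.0736 to 0.145. Ntn5 had 1 count per control mouse, and the mutants 1, 2 and 3 had 3, 18 and 11 counts. The ratio of the summed counts per library size was 9.89 (95% Poisson interval 3.09 to 50.5, counting error only), and mutant mouse 1 was at the floor of 3 counts. Unc5b was at 13, 10.3 and 11.2 CPM in controls 1, 2 and 3 and at 29.7, 22.5 and 29.3 CPM in mutants 1, 2 and 3. The genotypes were far apart for Unc5b, a netrin receptor of endothelial cells and some neurons, with a log2 fold change of 1.25 ± 0.15 (SE, adjusted p = 0.00716), or 2.37-fold.

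Neither Dcc nor another Unc5 receptor was called. Unc5a, the most abundant of them per kb, was at 43.8, 40.1 and 40.1 CPM in controls and 43.3, 38.1 and 49.7 CPM in mutants, with a log2 fold change of 0.079 ± 0.11 (SE, adjusted p = 0.659). Unc5c was lower in every mutant mouse, at 61.3, 54.1 and 52.1 CPM in controls and 47.3, 45.6 and 41.6 CPM in mutants, and its log2 fold change of -0.32 ± 0.10 (SE, adjusted p = 0.0637) missed the threshold in edgeR's test and passed it in DESeq2. Unc5d and Dcc overlapped between the genotypes, with log2 fold changes of 0.043 ± 0.083 (SE, adjusted p = 0.75) and -0.17 ± 0.22 (SE, adjusted p = 0.606). Per kb, Unc5b made up 7.6% ± 0.386 of the summed level of the Unc5 genes and Dcc in the control mice and 16.5% ± 1.04 in the mutant mice.

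**Figure D3:**
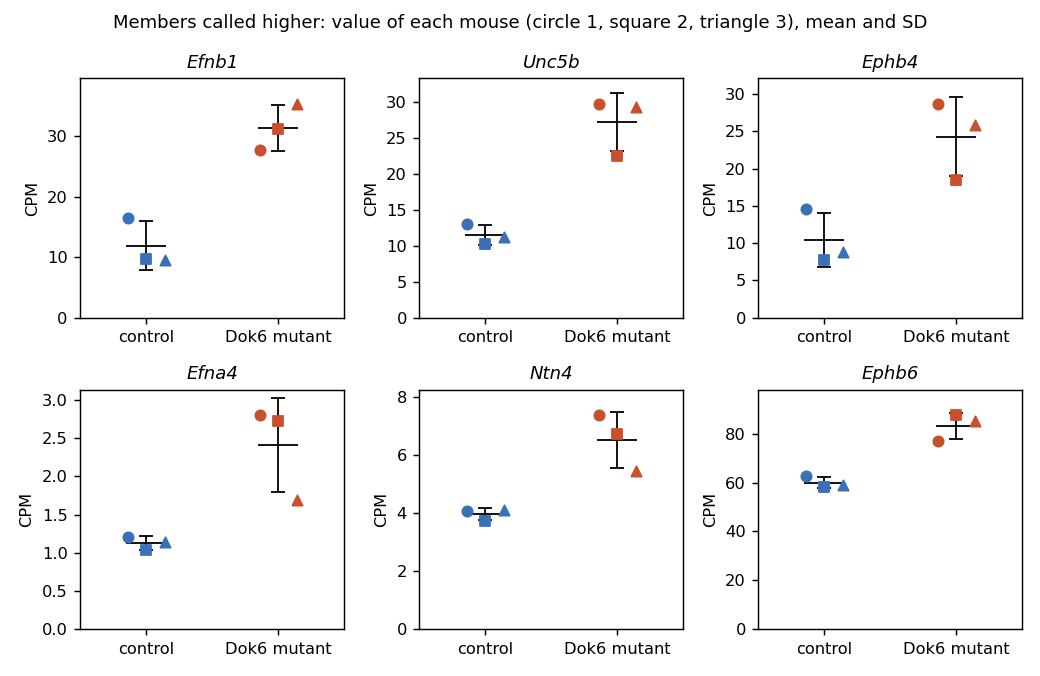
CPM of the 6 members called higher in each mouse, with control mice in blue and Dok6 mutant mice in red, symbols for mouse 1 (circle), 2 (square) and 3 (triangle), and lines for the mean and SD of 3 mice. In each panel the 3 mutant mice lie above the 3 control mice, and the mean differs most for Efnb1, at 2.64-fold, and least for Ephb6, at 1.39-fold.

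In GENCODE M21 on GRCm38, the 4 members called at a log2 fold change above 1 are protein-coding genes. They are Efnb1 (chromosome X, 99136130 to 99148991 on the plus strand), Unc5b (chromosome 10, 60762593 to 60831581 on the minus strand), Ephb4 (chromosome 5, 137350109 to 137378669 on the plus strand) and Efna4 (chromosome 3, 89333390 to 89338028 on the minus strand). An exon of Zan overlaps Ephb4 and an exon of 4731419I09Rik overlaps Efna4 on the opposite strand, and whether strand was used in counting is not given in the sources used here, so both counts are uncertain to that extent. Such an exon also overlaps Ephb1, Epha1, Epha6, Epha10, Efna3, Ntn5, Unc5a and Unc5c, which makes 10 of the 37 members, and Epha1 has a near-identical transcript in 2010010A06Rik. The other called members, Efnb1, Unc5b, Ntn4 and Ephb6, have neither.

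The 4 genes just named showed the largest called differences, and the 250 bases before their RefSeq starts (GRCm38.p6) are shown, 5′ to 3′ on the strand of the gene. Capitals mark matches, on either strand, to GGGCGG, known as the GC box, to CCGGAA, the core bound by ETS factors, to TATAAA, which is the TATA box, and to CCAAT. None of the 4 motifs contains another.
Efnb1, chrX:99135811-99136060, plus strand: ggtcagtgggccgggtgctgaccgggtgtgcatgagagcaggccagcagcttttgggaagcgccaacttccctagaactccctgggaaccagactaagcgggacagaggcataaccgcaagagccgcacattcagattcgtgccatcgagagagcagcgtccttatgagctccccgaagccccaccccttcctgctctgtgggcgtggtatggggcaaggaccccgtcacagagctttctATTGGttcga
Unc5b, chr10:60831582-60831831, minus strand: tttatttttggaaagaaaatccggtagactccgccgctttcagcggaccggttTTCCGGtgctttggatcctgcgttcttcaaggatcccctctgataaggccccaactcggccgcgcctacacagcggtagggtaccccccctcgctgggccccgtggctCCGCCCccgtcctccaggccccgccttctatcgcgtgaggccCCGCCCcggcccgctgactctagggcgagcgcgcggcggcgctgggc
Ephb4, chr5:137349859-137350108, plus strand: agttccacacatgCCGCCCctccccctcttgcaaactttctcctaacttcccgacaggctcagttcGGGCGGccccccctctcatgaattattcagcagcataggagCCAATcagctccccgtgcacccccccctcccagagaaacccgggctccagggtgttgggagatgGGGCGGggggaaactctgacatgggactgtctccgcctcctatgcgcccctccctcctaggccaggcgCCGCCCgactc
Efna4, chr3:89338029-89338278, minus strand: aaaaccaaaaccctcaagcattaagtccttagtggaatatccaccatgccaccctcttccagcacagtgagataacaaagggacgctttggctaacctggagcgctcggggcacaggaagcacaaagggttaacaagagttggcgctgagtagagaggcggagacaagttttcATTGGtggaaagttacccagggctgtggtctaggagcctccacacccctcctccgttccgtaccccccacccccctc
Ephb4 holds 4 matches to the GC box and 1 to CCAAT, and Unc5b holds 2 to the GC box and 1 to the ETS core. Efnb1 and Efna4 each hold 1 match to CCAAT and none to the GC box. Among all 32851 promoter windows of this length, 32.7% hold the GC box, 12% the ETS core, 12.4% the TATA box and 33.8% CCAAT. Of the 32 members with a window, 22 hold the GC box, 3 the ETS core, 2 the TATA box and 12 CCAAT. None of the listed letters is common to all 4 windows. A match of letters is a description of the sequence and not evidence of binding.

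Other genes of the same pathways, a list of 68 co-receptors, alternative ligands and cytoplasmic effectors, gave 5 called higher and 3 called lower of 68 tested, with 16 separated upward and 15 downward and a median log2 fold change of -0.028. Over all genes tested, 8.62% were called higher and 6.01% lower, and 19.6% and 18.7% separated upward and downward, so the list as a whole lay near the background and the genes named next are single calls. Vasp, an actin regulator downstream of Robo and netrin receptors, had the largest increase, at 23.9, 23 and 19.9 CPM in controls and 41.6, 40.8 and 49.3 CPM in mutants, with a log2 fold change of 0.98 ± 0.12 (SE, adjusted p = 0.00665). Rgs3, which links ephrin-B to G proteins, and Ablim1, an actin-binding protein, had log2 fold changes of 0.70 ± 0.14 (SE, adjusted p = 0.0197) and 0.49 ± 0.10 (SE, adjusted p = 0.0198). Adam10, a protease that cleaves ephrins, had one of 0.34 ± 0.080 (SE, adjusted p = 0.0281). The fifth increase was in Pak2. Transcripts of 1 other gene match Rgs3 and those of 4 others match Pak2 at 95% identity. Reads of Rgs3 and Pak2 could therefore have been split. The called decreases were in Flrt3, Neo1 and Pak1. Flrt3, a membrane ligand of Unc5 receptors and partner of Robo1, was at 34.5, 32.4 and 30.8 CPM in controls and 21.7, 18.9 and 19.8 CPM in mutants, with a log2 fold change of -0.69 ± 0.10 (SE, adjusted p = 0.0100). Neo1, a receptor for netrins related to Dcc, was at 408, 372 and 319 CPM in controls and 284, 246 and 299 CPM in mutants, with a log2 fold change of -0.41 ± 0.12 (SE, adjusted p = 0.0482). Pak1, a kinase acting downstream of Rac, had a log2 fold change of -0.40 ± 0.10 (SE, adjusted p = 0.0368). Without control mouse 2, 1 of the 68 genes was called.

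Markers of several other cell types moved with the genotype beside these genes, and their part in the differences was not tested. For comparison, 8.62% of all genes tested were called higher and 6.01% lower, and 51.4% were positive in sign. At an unadjusted p under 0.05 in edgeR's test, 18% were higher and 15.5% lower. Endothelial markers were higher in sign in 10 of 10 genes, and 4 of them (Kdr, Tek, Flt1 and Emcn) were called. Their sums were 327, 240.3, 204 CPM in controls 1, 2 and 3 and 424, 348, 474 CPM in mutants 1, 2 and 3. Fibroblast markers had 4 of 10 tested genes called higher and summed to 305 to 935 CPM in controls and 1538 to 2170.5 CPM in mutants, the order in which all further sums are given. Skeletal muscle markers had 8 of 8 tested genes called higher and summed to 11.5 to 21.3 CPM and 115 to 640.1 CPM. Of the 12 genes of the muscle list, 2 reached 1 CPM in each of the libraries, and Tnnc2 had no count in any. Of the other untested genes, Myog and Myod1 overlapped between the genotypes and Mylk2 was higher in every mutant mouse. Genes low in controls, such as Tnni2 with 9, 14 and 1 counts there, entered the test through the mutant libraries. The filter thus set part of the share called, also in the DRG list, where Mrgprd had 0, 2 and 1 counts in controls. Markers of DRG sensory neurons had 11 of 19 tested genes called higher, among them Scn10a at 3.1, 2.92 and 1.2 CPM in controls and 46, 167 and 133 CPM in mutants, and the whole list, led by the widely expressed Tubb3, summed to 2687 to 2758 CPM and 2540.2 to 3588 CPM. Schwann cell markers had 8 of 15 called higher, and their sums overlapped, at 1039 to 2552 CPM and 1347 to 7595 CPM. Markers of central neurons went the other way, with 12 of 13 negative in sign and 2 called lower, and summed to 2115 to 2603 CPM and 1936 to 2048 CPM. Central glia and macrophage lists had 0 called genes in edgeR's test, with 1 and 2 genes at an unadjusted p under 0.05, and the glial sums overlapped between the genotypes at 1735 to 2749 CPM and 1659 to 3473 CPM. The macrophage sums were 91.9 to 128 CPM and 131 to 138 CPM.

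**Figure D4:**
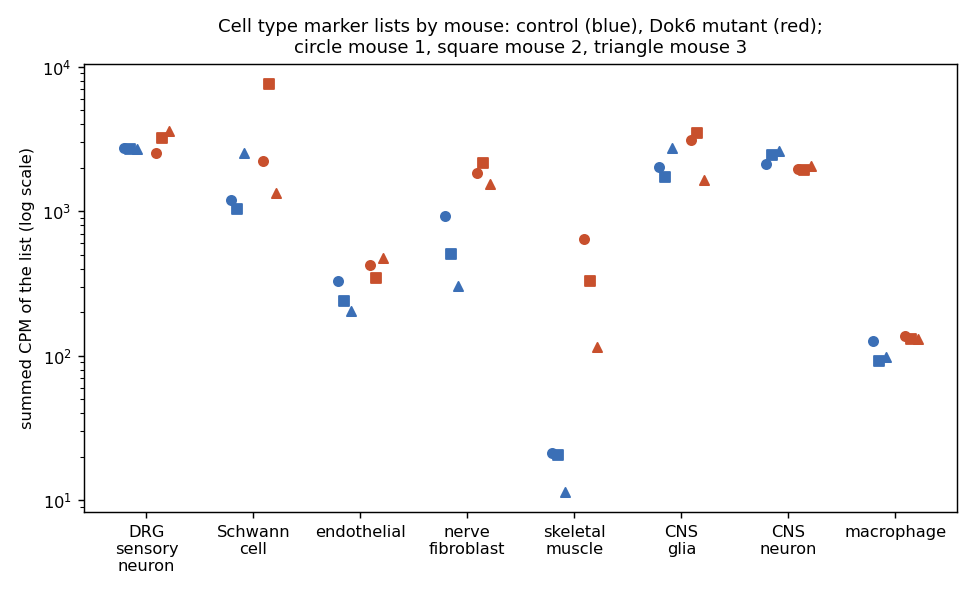
Summed CPM of 8 lists of cell type markers in each mouse on a log scale, with control mice in blue, Dok6 mutant mice in red and symbols for mouse 1 (circle), 2 (square) and 3 (triangle). The mutant mice lie above the control mice for the endothelial, fibroblast, muscle and macrophage lists and below them for central neurons, and the genotypes overlap for DRG neurons, Schwann cells and central glia.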

How the data were processed

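RNA labelled as sciatic nerve from 6 mice at postnatal day 3, 3 per genotype, was sequenced on an Illumina NovaSeq from NEBNext Ultra Directional libraries (the labels name the kit without Directional). The authors deposited whole-number counts of reads per gene, not normalized, with a gene length. The submitters' processing notes name the build mm10. The aligner, the counter and its use of strand are not given in the sources used here. The test was edgeR 4.0.16 (R 4.3.3) on the counts of all 6 libraries: filterByExpr, TMM scaling, glmQLFit and glmQLFTest without a block, and Benjamini-Hochberg adjustment over all 17099 genes tested. Standard errors come from the F statistic. The floor of 3 counts was 0.161 to 0.169 CPM per library and, like the intervals, covers counting error alone, as no molecular identifiers were used. With 3 mice against 3, each p-value sets the genotype difference against the spread among mice within a genotype. In edgeR's test the estimate of that spread for a gene draws in part on the other genes. The alternatives were DESeq2 1.42.0, limma 3.58.1 voom, RLE scaling, other filters, the replicate number as a block and leaving out each mouse. The edgeR, DESeq2, voom and block fits were tried on simulated counts. Every member is named, those called and the most abundant of each family with all mice, and of the other pathway genes called the 4 largest increases and decreases, with Pak2 added after its value was seen. For Dcc the gene length of the authors, 8067 bases, is below the 13171 exonic bases of GENCODE M21. Members and lists were chosen with earlier results of these data known. Overlaps came from GENCODE M21, and near-identical transcripts from BLAST 2.17.0 at 95% identity over 200 bases. Promoter sequences are from RefSeq, for 32 members. The values of 1 marker gene are not reported here.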

Additional observations from a re-analysis of the deposited data

How the results depend on the processing

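Efnb1 and Unc5b kept their direction under all 12 alternatives and were called under 11 of them, the exception being the fit without control mouse 2. Ephb6 was called under 10, Ephb4 under 9, Ntn4 under 5 and Efna4 under 3, each higher in the mutant mice throughout. Over all genes, the replicate block gave 562 calls instead of 2502, and of the members it left 3 called higher (Efnb1, Ephb4 and Unc5b), 1 of them a ligand, and of the other pathway genes 2. The adjusted p-values of Ephb6, Ntn4 and Efna4 with the replicate block were 0.0579, 0.100 and 0.109. The mouse numbers mark no stated litter or day, and deviations of same-numbered mice correlated at -0.0078, -0.17 and -0.24, so they were not treated as pairs. DESeq2 called 1 member lower, the receptor Unc5c, and 14 of the other pathway genes. Without a filter on low counts, Ntn5 was tested and called higher. It was also called without mutant mouse 1, its lowest mutant, but there it passed the filter only through mutant mice 2 and 3. That call was thus partly set by the selection and adds no support. In the fits without single control mice Ntn5 was tested and not called.

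Leaving out each mouse in turn gave 68 to 2904 calls over all genes, 0 to 7 members higher and 0 to 2 lower, 0 to 4 receptors higher and 0 to 1 lower, 0 to 3 ligands higher and 0 to 1 lower, and 1 to 15 other pathway genes. The lowest counts of higher calls came without control mouse 2. Without control mouse 3, Efnb3 was called lower, and without mutant mouse 3, Efna5 and Robo2 were called lower and Ephb3 higher. The median log2 fold change ranged from -0.082 to 0.086 for receptors and from 0.13 to 0.33 for ligands. Directions turned only for Efna3, Slit1 and Unc5a among the 12 genes followed, none of them called. Efna3 was at 0.0071 with at least 10 counts in every library and between -0.081 and 0.11 without single mice, Slit1 at -0.0048 with DESeq2, -0.0047 with RLE scaling and between -0.15 and 0.23 without single mice, and Unc5a between -0.023 and 0.17. Without mutant mouse 1, mutant mouse 2, control mouse 1 and control mouse 3, the calls over all genes were 888, 723, 1608 and 1627. The cause of these changes was not tested, and fits without a mouse also have fewer samples. At this depth Ntn5 and, in part, Epha1 are limited by their counts.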
